A study of Mus musculus with 6 samples.

Results

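The genes described here are 10 regulators of fetal-type lymphopoiesis and of early blood progenitors: LIN28B, HMGA2, IGF2BP1, IGF2BP2, IGF2BP3, ARID3A, SOX4, ERG, LEF1 and MYB. Symbols of these genes are given in capitals because members were chosen by matching the names in the array's probe table without regard to case, and every probe with a matching name was kept. This gave 28 of the 45281 probes on the array. The first 6 genes belong to the fetal programme around LIN28B and hold 16 probes, and SOX4, ERG, LEF1 and MYB are early progenitor regulators and hold 12 probes.

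Gene expression was measured in pre-B cells, an immature stage of the B lineage before a complete antigen receptor is made. They came by cell sorting from mouse embryos at E17.5. The cells of 3 samples were Smchd1 null, homozygous for a gene trap allele of Smchd1, and those of 3 samples were Smchd1 wildtype. Smchd1 encodes a chromatin protein with roles in gene silencing, including that of the inactive X chromosome and of clustered genes. Both groups were C57BL/6 and both carried the Eµ-Myc transgene, in which the enhancer of the immunoglobulin heavy chain gene drives the oncogene Myc in cells of the B lineage, so no sample shows these genes without the transgene. Each sample was hybridised to 1 array of the Illumina MouseWG-6 v2 type, and all 6 arrays lay on 1 chip with the genotypes alternating along it. The labels do not say which organ was sorted, by which gate, or whether each array held a separate embryo, so p-values measure only the spread between these samples.

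Fetal blood-forming cells make lymphocytes of another kind than adult ones, and LIN28B is the best known switch between the 2 states. It encodes an RNA-binding protein that blocks the maturation of let-7 microRNAs, and let-7 in turn lowers the mRNAs of HMGA2, of the IGF2BP genes, of ARID3A and of LIN28B itself. SOX4, LEF1 and MYB encode transcription factors that early B cell precursors depend on, and ERG encodes one that blood stem cells depend on.

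The let-7 microRNAs are shown because they link LIN28B to the other fetal genes. Most of them share 1 short sequence, the seed at bases 2 to 8 of the mature strand. In RefSeq (GRCm38.p6) the seed GAGGUAG was carried by 11 mature names at 13 loci in the mouse, miR-98 among them, and 1 further name of the let-7 family did not carry it. The array used here does not report on mature microRNAs. The seed is in capitals in the following 4 examples, read 5′ to 3′ and taken from chr13:48538239-48538260 (- strand), chr13:48536078-48536099 (- strand), chr9:106178846-106178867 (+ strand) and chrX:151913229-151913250 (+ strand).
mmu-let-7a-5p: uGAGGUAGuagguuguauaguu
mmu-let-7d-5p: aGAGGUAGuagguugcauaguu
mmu-let-7g-5p: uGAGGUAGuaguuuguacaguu
mmu-miR-98-5p: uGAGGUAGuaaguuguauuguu

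Since every sample carried the Myc transgene, the 250 bases upstream of RefSeq transcript starts were searched for CACGTG, the E-box that Myc binds together with Max. The motif reads the same on both strands, so 1 search covers both and no other motif was searched. RefSeq (GRCm38.p6) windows were found for 8 of the 10 genes, 13 windows in all, and IGF2BP1 and ARID3A were not in the table. The motif stood once in a window of LIN28B, of IGF2BP3 and of LEF1, or in 3 of the 13 windows, while 6.02% of all 32851 windows in the table held it. A match is a description of the letters and not of binding. The windows of LIN28B (chr10:45470202-45470451, - strand) and IGF2BP3 (chr6:49214955-49215204, - strand), both genes of the fetal programme with a probe detected on every array, are printed with CACGTG in capitals. The motif begins at position -49 and at position -23 relative to the transcript starts these 2 windows belong to. Those are not the outermost starts: in the same annotation the start of LIN28B lies 16113 bases inside the 5′ end of the gene and that of IGF2BP3 515 bases inside it, and the LEF1 window with the motif belongs to a start 45997 bases inside. The sequence upstream of the outermost LIN28B and IGF2BP3 starts was not searched.
LIN28B upstream window: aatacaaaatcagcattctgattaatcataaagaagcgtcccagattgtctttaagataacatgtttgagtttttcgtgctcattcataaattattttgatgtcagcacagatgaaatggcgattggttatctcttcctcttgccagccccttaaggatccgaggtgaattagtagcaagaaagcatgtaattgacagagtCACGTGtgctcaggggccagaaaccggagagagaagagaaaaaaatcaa
IGF2BP3 upstream window: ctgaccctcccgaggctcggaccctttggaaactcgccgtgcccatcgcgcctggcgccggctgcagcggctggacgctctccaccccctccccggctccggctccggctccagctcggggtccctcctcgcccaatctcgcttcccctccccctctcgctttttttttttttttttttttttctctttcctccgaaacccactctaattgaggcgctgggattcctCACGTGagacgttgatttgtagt

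Levels are given as log2 intensity after background correction and quantile normalization (neqc). A probe was called detected on an array when its detection p was under 0.05, that is, when it outshone nearly all negative controls. The dimmest detected probe of an array lay between 5.08 and 5.19 on the log2 scale, and between 15309 and 16447 probes were detected per array. The brightest Smchd1 probe had 4.64, 5.03 and 4.96 in Smchd1 null samples, not detected, against 9.50, 9.65 and 9.67 in wildtype samples (limma adjusted p = 5.6e-05), so this probe and the labels match on every array. A second probe, 2360553, was likewise not detected in any Smchd1 null sample, while probe 160735 was detected in all samples, with 6.13, 5.15 and 5.43 in Smchd1 null samples, against 6.90, 6.64 and 6.43 in wildtype samples (limma adjusted p = 0.86). The other 2 Smchd1 probes were detected on no array. Smchd1 null replicate 3 stood apart from the other 5 arrays. Over the tested probes it correlated with them at 0.946 to 0.956, whereas the pairs among the other 5 correlated at 0.984 to 0.994. It lay more than 0.5 (log2) from the mean of Smchd1 null replicates 1 and 2 at 35% of the 15878 tested probes and at 12 of the 19 tested probes of the 10 genes. Smchd1 null replicates 1 and 2 lay as far from the mean of the other 2 Smchd1 null samples at 22.8% and 17.1% of all tested probes. They did so at 6 and 11 of the 19 probes, but those means include replicate 3. Log2 changes of the tested probes of the 10 genes are therefore given with and without Smchd1 null replicate 3, as are those of many other named genes.

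Of the 28 probes, 17 were detected on all 6 arrays and 6 on none. The 19 probes detected on at least 3 arrays entered the test. They covered 8 of the 10 genes, and no probe of HMGA2 or ERG was among them. No tested probe of the 10 genes passed an adjusted p of 0.05 in either direction, in a comparison in which 9 of 15878 probes (0.0567%) passed it. Adjusted p-values of the 19 probes ran between 0.934 and 0.988. At an unadjusted p under 0.05 there was 1 of 19 probes (5.26%), a probe of MYB, against 4.04% of all tested probes. None of the 19 tested probes had all 3 Smchd1 null samples below all 3 wildtype samples, which 5.09% of all tested probes had, and none had them all above, which 4.52% had. The estimates were below 0 for 12 of the 19 probes (63.2%), against 53.5% of all tested probes. The 95% intervals of the 19 log2 changes had half-widths between 0.34 and 1.44, the narrowest for LIN28B and the widest for IGF2BP2. Because the samples are cell populations, fewer cells of a type and less RNA per cell cannot be told apart in any of these values.

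**Figure D1:**
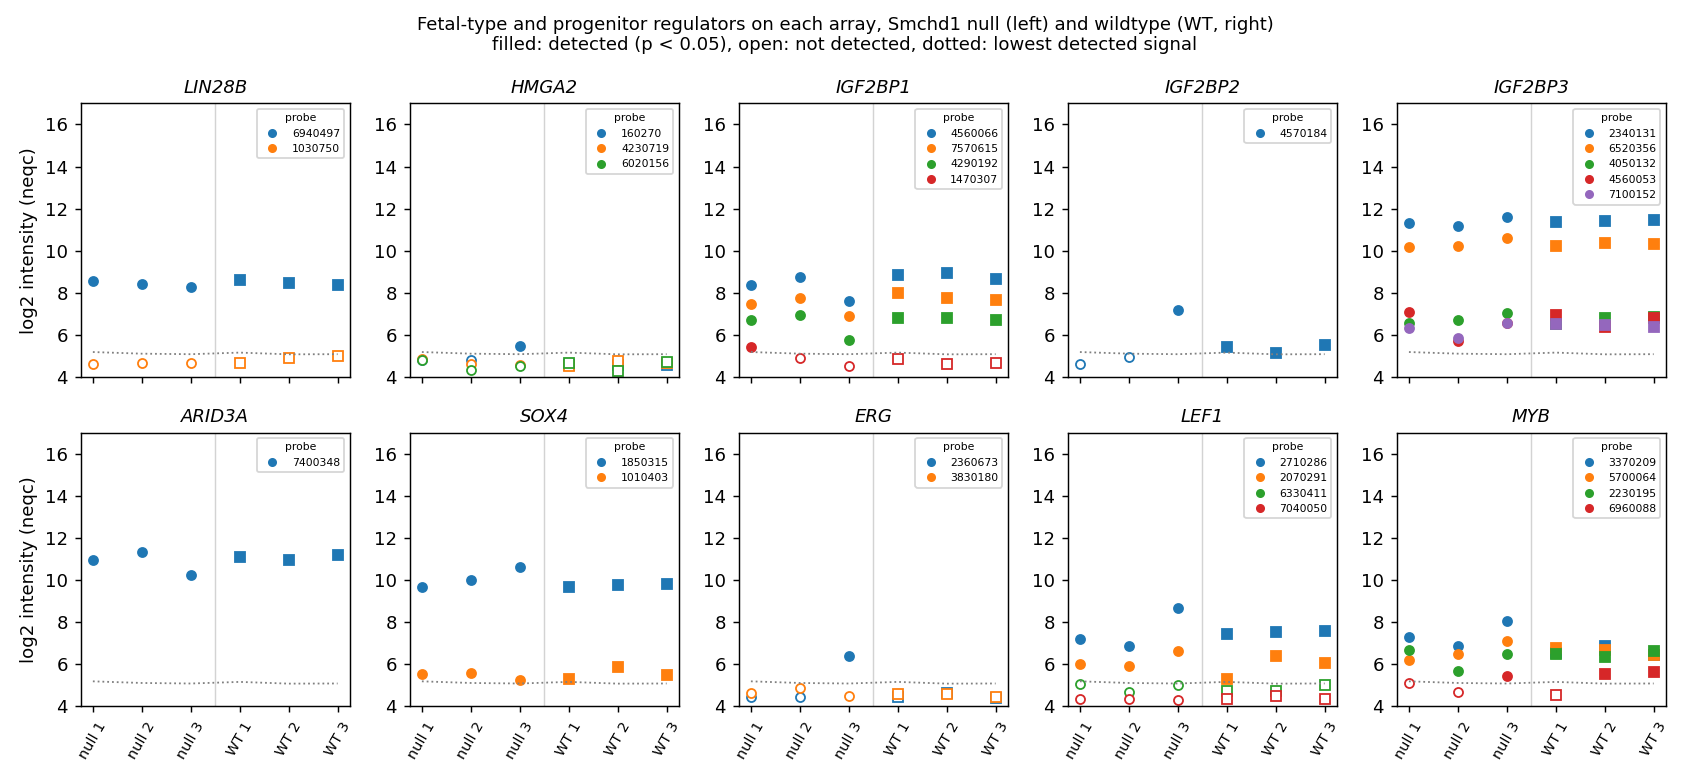
Log2 intensity (neqc) of all 28 probes of the 10 genes on each array, Smchd1 null replicates 1 to 3 on the left and wildtype (WT) replicates 1 to 3 on the right of each panel. Filled symbols are detected and open ones are not, the dotted line is the lowest detected signal of each array, and colours mark probes of 1 gene. HMGA2, IGF2BP2, IGF2BP3, SOX4, ERG, LEF1 and MYB hold at least 1 filled point in Smchd1 null replicate 3 that lies above all other points of the same colour. LIN28B, IGF2BP1, ARID3A and the dimmer SOX4 probe hold a filled point there that lies below them, that of LIN28B by little.

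LIN28B was detected on every array at a level that hardly varied after quantile normalization. Its probe 6940497 had 8.55, 8.40 and 8.29 in Smchd1 null samples, against 8.59, 8.48 and 8.35 in wildtype samples. The groups covered nearly the same range, and Smchd1 null replicate 3 was the lowest of the 6 by a small margin. The means were 8.41 ± 0.13 in Smchd1 null and 8.47 ± 0.12 in wildtype samples (SD, n = 3 each), a log2 change of -0.06 with an SE of 0.145 (limma adjusted p = 0.955). The 95% interval of the fold, Smchd1 null over wildtype, ran from 0.758 to 1.22, which leaves room for a moderate difference either way. Without Smchd1 null replicate 3 the log2 change was 0.00 with an SE of 0.133. With median scaling in place of quantile normalization, the probe ran from 8.21 in Smchd1 null replicate 3 to 8.87 in wildtype replicate 2. The other LIN28B probe, 1030750, was not detected on any array.

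HMGA2 encodes a chromatin protein that bends DNA and is made mostly in embryonic tissue. Of its 3 probes, 4230719 and 6020156 were not detected on any array. Probe 160270 had 4.79, 4.82 and 5.48 in Smchd1 null samples, against 4.59, 4.57 and 4.58 in wildtype samples, and was detected in Smchd1 null replicate 3 alone. All 3 Smchd1 null values lay above the wildtype values, but the other 5 arrays read background. No fold is given, since at most 1 array per probe rose above background.

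IGF2BP1, IGF2BP2 and IGF2BP3 encode related proteins that bind mRNAs and guard their stability and translation, and IGF2BP3 is used as a fetal B lineage marker in the mouse. IGF2BP1 had 8.38, 8.74 and 7.61 in Smchd1 null samples, against 8.85, 8.93 and 8.68 in wildtype samples, at its brightest probe, 4560066. Smchd1 null replicates 1 and 3 lay below all wildtype samples and replicate 2 lay among them, with replicate 3 the lowest of all. The means were 8.24 ± 0.58 in Smchd1 null and 8.82 ± 0.13 in wildtype samples (SD, n = 3 each), a log2 change of -0.58 with an SE of 0.283 (limma adjusted p = 0.934).

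The 2 dimmer tested probes of IGF2BP1 followed the same order of arrays in part. Probe 7570615 had 7.46, 7.74 and 6.88 in Smchd1 null samples, against 7.97, 7.77 and 7.65 in wildtype samples. Probe 4290192 had 6.70, 6.94 and 5.78 in Smchd1 null samples, against 6.79, 6.80 and 6.69 in wildtype samples. At all 3 probes Smchd1 null replicate 3 was the lowest array, and over the 6 arrays the probes correlated with each other at 0.917 to 0.974, a description of 6 points that share their RNA. The log2 changes were -0.44 (SE 0.236) and -0.28 (SE 0.293) for these dimmer probes. Without Smchd1 null replicate 3 the 3 probes gave -0.26, -0.20 and 0.07, so the sign of the third rests on that array. The fourth probe, 1470307, was detected in Smchd1 null replicate 1 alone.

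IGF2BP2 split the Smchd1 null samples. Probe 4570184 had 4.61, 4.94 and 7.17 in Smchd1 null samples, against 5.44, 5.16 and 5.51 in wildtype samples. In Smchd1 null replicates 1 and 2 it was not detected and lay below every wildtype sample, while in replicate 3 it was above every other array. All 3 wildtype samples were detected, yet close to background. The log2 change over all 6 arrays was 0.20 with an SE of 0.613 (limma adjusted p = 0.964), and without Smchd1 null replicate 3 it was -0.59 with an SE of 0.167 (limma adjusted p = 0.435). The direction therefore depends on 1 array, and in neither fit did the probe pass the threshold.

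IGF2BP3 was read by 5 probes, all detected on every array. The brightest, 2340131, had 11.34, 11.17 and 11.60 in Smchd1 null samples, against 11.38, 11.41 and 11.46 in wildtype samples. Probe 6520356 had 10.19, 10.20 and 10.60 in Smchd1 null samples, against 10.25, 10.37 and 10.31 in wildtype samples. In both, Smchd1 null replicates 1 and 2 lay just under the wildtype samples and replicate 3 just above them. The log2 change of probe 2340131 was -0.05 with an SE of 0.157 (limma adjusted p = 0.968; 95% interval -0.41 to 0.32), and without Smchd1 null replicate 3 it was -0.16 with an SE of 0.123 (limma adjusted p = 0.893). Probe 6520356 gave 0.02, or -0.11 without that array. The 3 dimmer probes gave log2 changes of 0.06, -0.27 and -0.21, or -0.08, -0.33 and -0.38 without it, and the 10 pairs among the 5 probes correlated over the 6 arrays between -0.302 and 0.878.

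ARID3A encodes a DNA-binding protein of B cells, also known as Bright, that acts downstream of LIN28B and let-7 in fetal-type B cell development. Its 1 probe, 7400348, had 10.95, 11.32 and 10.23 in Smchd1 null samples, against 11.10, 10.97 and 11.17 in wildtype samples. Smchd1 null replicate 2 was the highest of the 6 arrays and replicate 3 the lowest, with the wildtype samples between. The log2 change was -0.25 with an SE of 0.270 (limma adjusted p = 0.934; 95% interval -0.88 to 0.39), and without Smchd1 null replicate 3 it was 0.05 with an SE of 0.154.

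SOX4 encodes a transcription factor of the SRY-box family that pro-B cells need to survive. Its brighter probe, 1850315, had 9.69, 10.01 and 10.62 in Smchd1 null samples, against 9.66, 9.75 and 9.82 in wildtype samples. Smchd1 null replicates 2 and 3 lay above all wildtype samples and replicate 1 lay among them. The log2 change was 0.36 with an SE of 0.241 (limma adjusted p = 0.934), and 0.10 with an SE of 0.144 without Smchd1 null replicate 3. The dimmer probe, 1010403, gave -0.10, or -0.00349 without it, and the 2 probes correlated at -0.455 over the 6 arrays.

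ERG belongs to the ETS family of transcription factors. Probe 2360673 had 4.43, 4.44 and 6.37 in Smchd1 null samples, against 4.47, 4.64 and 4.41 in wildtype samples. Smchd1 null replicate 3 alone was detected, where the probe was brighter than every negative control, and the other 5 arrays read background. The deposited intensity there was 205.1 with a bead SE of 6.91 over 27 beads, while the negative controls of that array averaged 136.2 with an SD of 10.4. The other ERG probe, 3830180, was not detected on any array, that of Smchd1 null replicate 3 included.

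LEF1 encodes a DNA-binding partner of beta-catenin that pro-B cells use to proliferate in response to Wnt signals. Its brightest probe, 2710286, had 7.20, 6.85 and 8.67 in Smchd1 null samples, against 7.44, 7.52 and 7.56 in wildtype samples. As for IGF2BP2, Smchd1 null replicates 1 and 2 were the lowest arrays and replicate 3 the highest. The log2 change was 0.07 with an SE of 0.432 over all 6 arrays (limma adjusted p = 0.986), and -0.48 with an SE of 0.147 without Smchd1 null replicate 3 (limma adjusted p = 0.495).

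The dimmer LEF1 probe, 2070291, had 6.02, 5.90 and 6.64 in Smchd1 null samples, against 5.31, 6.39 and 6.06 in wildtype samples. Here the lowest array was wildtype replicate 1, so the order of probe 2710286 among the other arrays did not recur, although Smchd1 null replicate 3 was again the highest. The log2 change was 0.27 with an SE of 0.318, and 0.04 without that array. The 2 further LEF1 probes were not detected on any array.

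MYB encodes a transcription factor that B cell precursors need before they reach the pre-B stage. Its brightest probe, 3370209, had 7.29, 6.87 and 8.04 in Smchd1 null samples, against 6.55, 6.89 and 6.45 in wildtype samples. Smchd1 null replicates 1 and 3 lay above all wildtype samples and replicate 2 lay just under wildtype replicate 2. The means were 7.40 ± 0.59 in Smchd1 null and 6.63 ± 0.23 in wildtype samples (SD, n = 3 each), a log2 change of 0.77 with an SE of 0.298 and a fold of 1.70. The limma p was 0.0353 before and 0.934 after adjustment over all tested probes. Without Smchd1 null replicate 3 the log2 change was 0.45 with an SE of 0.192 (limma adjusted p = 0.668).

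The other MYB probes did not share that direction. Probe 5700064 had 6.20, 6.46 and 7.12 in Smchd1 null samples, against 6.75, 6.70 and 6.45 in wildtype samples, a log2 change of -0.04, or -0.30 without Smchd1 null replicate 3. Probe 2230195 had 6.67, 5.68 and 6.49 in Smchd1 null samples, against 6.50, 6.36 and 6.64 in wildtype samples, a log2 change of -0.22, or -0.33 without it. Probe 6960088 was detected in 1 Smchd1 null and 2 wildtype samples and gave -0.17, or -0.35 without it. The 6 pairs among the 4 probes correlated over the 6 arrays between 0.018 and 0.484, so the probes of this gene shared little of their variation.

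**Figure D2:**
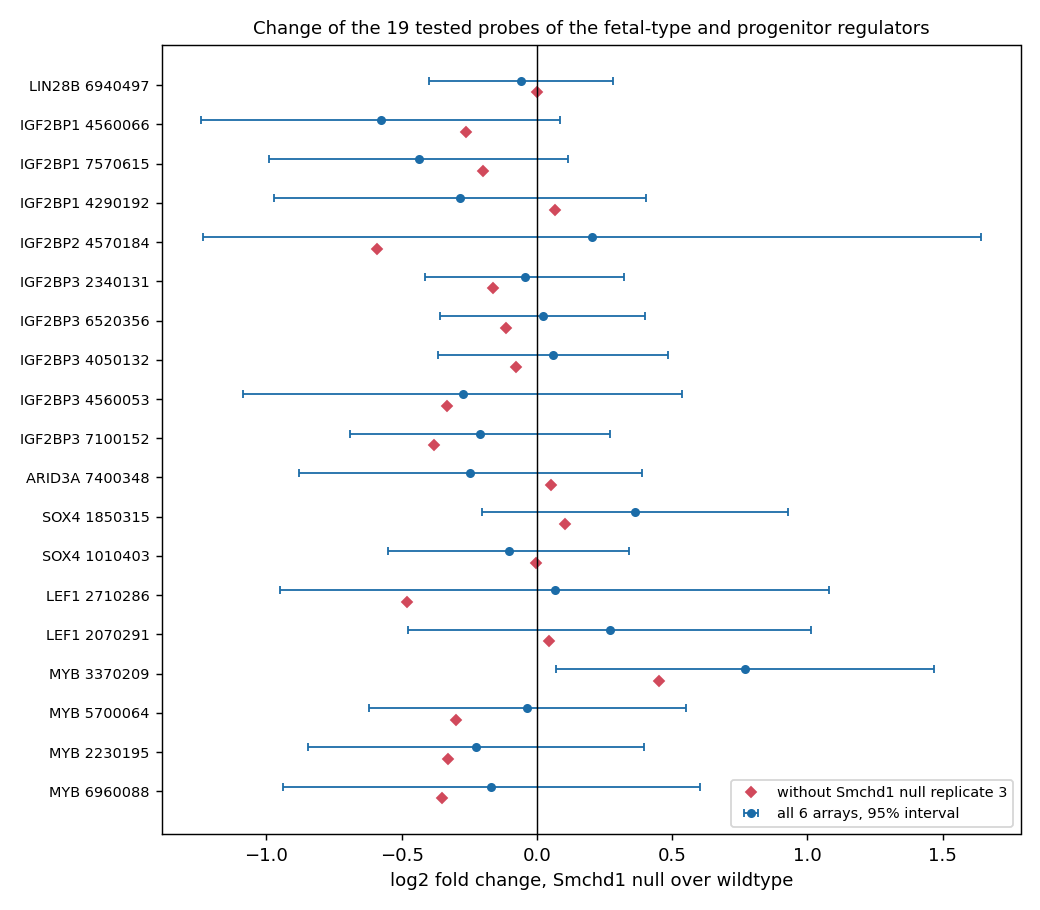
Log2 fold change, Smchd1 null over wildtype, of the 19 tested probes. Circles are estimates from all 6 arrays with their 95% intervals (limma), and diamonds are estimates without Smchd1 null replicate 3. The interval of MYB probe 3370209, from 0.07 to 1.47 before adjustment, is the only 1 of the 19 that leaves out 0, and the diamonds of IGF2BP2, ARID3A, LEF1 probe 2710286, LIN28B, IGF2BP1 probe 4290192 and IGF2BP3 probes 6520356 and 4050132 lie on the other side of 0 from their circles, that of LIN28B barely.

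By gene, LIN28B, IGF2BP1 and ARID3A had estimates below 0 at every tested probe, IGF2BP2 and LEF1 had estimates above 0, and IGF2BP3, SOX4 and MYB were mixed. Of the fetal genes, 8 of 11 tested probes were below 0, and of the progenitor genes 4 of 8. Without Smchd1 null replicate 3, 13 of the 19 probes (68.4%) were below 0, against 49.2% of all tested probes, and none passed the threshold, which 0.258% of all tested probes then did. In that fit both remaining Smchd1 null samples lay below all 3 wildtype samples at 5 of 19 probes (26.3%), against 10.7% of all tested probes. The 5 were the IGF2BP2 probe, 3 probes of IGF2BP3 and LEF1 probe 2710286, so 3 of them read 1 transcript. An unadjusted p under 0.05 was reached by 2 of 19 probes (10.5%), those of IGF2BP2 and LEF1, against 7.46% of all tested probes.

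Smchd1 null replicate 3 differed from the mean of replicates 1 and 2 in both directions. It was higher by 2.39 (log2) for IGF2BP2, by 1.93 for ERG probe 2360673, by 1.64 for LEF1 probe 2710286, by 0.95 for MYB probe 3370209 and by 0.77 for SOX4 probe 1850315. The difference was -0.95 for IGF2BP1 probe 4560066 and -0.90 for ARID3A. It was -0.18 for LIN28B, -0.30 for SOX4 probe 1010403 and 0.67 for HMGA2 probe 160270. For the 5 IGF2BP3 probes it lay between 0.18 and 0.51, with 0.35 for the brightest, 2340131. The brightest probes of SOX4, LEF1 and MYB were thus high on this array, as were IGF2BP2 and, by less, HMGA2 probe 160270 and IGF2BP3. ERG probe 2360673 was high there too, but its mean exceeds that of ERG probe 3830180 only through this array. Probe 3830180 was at 4.51 in Smchd1 null replicate 3, not detected. IGF2BP1 and ARID3A were low there and LIN28B was near the other arrays.

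The wider gene lists were described in the same way, with each gene represented by its brightest tested probe. Among all 10904 genes so represented, 0.0734% passed the threshold, 9.61% had groups that did not overlap and 52.4% had an estimate below 0, with a median log2 change of -0.01. No gene of the 6 pathway lists that follow passed the threshold.

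Of 12 genes for LIN28 proteins and let-7 processing, 9 were tested, 5 with estimates above 0 and 4 below, with a median of 0.03. Lin28a, the close relative of LIN28B, was not among the tested genes, nor were Trim71, itself repressed by let-7, and Tut4, a uridylating enzyme that Lin28a recruits to let-7 precursors. Tut7, which adds uridines to let-7 precursors as well, gave 0.16 (SE 0.169), or 0.02 without Smchd1 null replicate 3, Dgcr8, the partner of the Drosha nuclease, gave 0.08, or 0.16 without it, and Ago2, which carries mature microRNAs, gave -0.15. Prkra, a partner of Dicer, had 7.18, 7.05 and 8.96 in Smchd1 null samples, against 7.10, 6.98 and 7.12 in wildtype samples, so that its log2 change of 0.66 (SE 0.475) rests on Smchd1 null replicate 3, without which it was 0.05.

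Of 23 other known let-7 targets, 21 were tested, and 16 had estimates below 0 with a median of -0.07. Igf1r, the receptor of insulin-like growth factor 1, gave -0.36 (SE 0.211) and E2f6, a repressive E2F factor, gave -0.20 (SE 0.144), or -0.51 and -0.13 without Smchd1 null replicate 3. Ccnd2, the cell cycle protein cyclin D2, had 6.42, 8.15 and 8.85 in Smchd1 null samples, against 7.01, 6.88 and 6.73 in wildtype samples, a log2 change of 0.94 (SE 0.553), or 0.42 without Smchd1 null replicate 3. Its Smchd1 null replicates 2 and 3 were the highest arrays and replicate 1 the lowest. Myc had 8.51, 8.32 and 6.24 in Smchd1 null samples, against 8.49, 8.53 and 8.82 in wildtype samples, a log2 change of -0.92 (SE 0.559) that was -0.20 without Smchd1 null replicate 3. The low array was again replicate 3, and the files do not say whether this probe also reads the transcript of the transgene.

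Other genes that separate fetal-type from adult-type lymphopoiesis were mostly not measurable. Of 6 on the array, Sox17, Bhlhe41 and Dntt, which encodes the enzyme that adds bases at the joints of rearranged receptors, were not detected on any array, and Lin28a was not tested. Arid3b, a relative of ARID3A, and Zbtb16, a zinc finger repressor, both gave -0.08, or 0.02 and -0.11 without Smchd1 null replicate 3.

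Among 23 other stem and progenitor cell genes, 16 were tested, 11 with estimates above 0 and 5 below, and the median log2 change was 0.17. The median was -0.07 once Smchd1 null replicate 3 was left out, and the medians of the departures from the wildtype mean were -0.04, -0.12 and 0.65 in Smchd1 null replicates 1, 2 and 3. Fli1, an ETS factor close to ERG, had 7.37, 7.31 and 7.05 in Smchd1 null samples, against 7.63, 7.72 and 7.63 in wildtype samples, without overlap, a log2 change of -0.42 (SE 0.146, limma adjusted p = 0.934). Meis1, a homeobox factor of blood stem cells, had 7.31, 7.66 and 8.24 in Smchd1 null samples, against 7.08, 7.16 and 7.07 in wildtype samples, also without overlap and in the other direction, a log2 change of 0.63 (SE 0.236, limma adjusted p = 0.934), or 0.38 without Smchd1 null replicate 3. These were the 2 genes of 16 whose groups did not overlap, near the share among all genes given above. Hhex, a homeobox factor of early lymphoid cells, gave 0.45 (SE 0.272) and Runx1, a factor needed to form blood stem cells, gave 0.49 (SE 0.385). Both rest largely on Smchd1 null replicate 3, without which Hhex gave 0.14 and Runx1 -0.002.

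**Figure D3:**
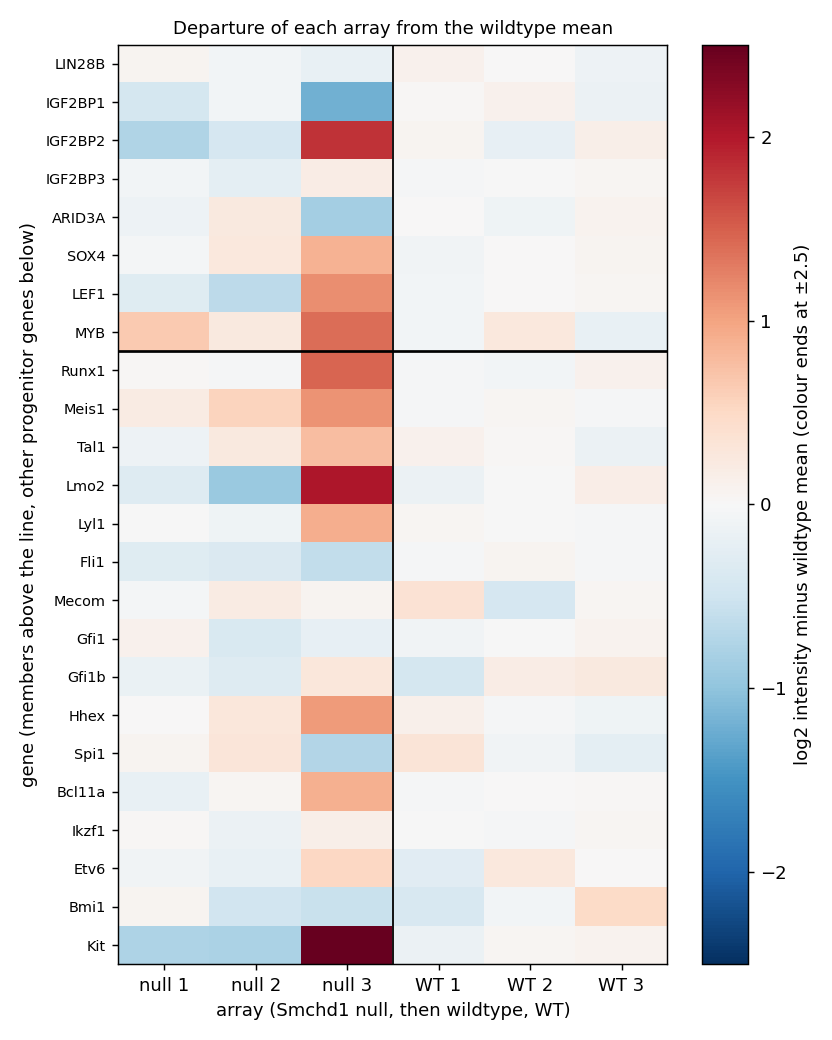
Log2 intensity of each array minus the mean of the wildtype samples, for the brightest tested probe of each of the 8 measurable members (above the line) and of 16 other stem and progenitor cell genes (below it), with Smchd1 null replicates left of wildtype (WT) replicates and colours ending at ±2.5. The column of Smchd1 null replicate 3 holds the darkest cells, in both directions. The cells of IGF2BP1 and of Fli1 are below 0 in all 3 Smchd1 null columns.

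The relatives and partners of LEF1 had 9 tested genes of 14 on the array, 6 above 0 and 3 below, with a median of 0.12, or 0.04 without Smchd1 null replicate 3. Tle3 and Tle4, corepressors that bind LEF1 and its relatives, gave 0.24 (SE 0.190) and 0.31 (SE 0.319), or 0.12 and -0.06 without Smchd1 null replicate 3, so the sign of Tle4 rests on that array. The scaffold genes Apc and Axin1, which hold beta-catenin in check, gave 0.28 and -0.13, or 0.29 and -0.11 without it. Axin2 and Tcf7 had no probe that could be tested. Among the closest relatives of the 10 genes, 7 of 12 on the array were tested and 3 had Smchd1 null samples all below wildtype samples, while 9.61% of all genes did not overlap in either direction. They were Fli1, given above, Mybl2 of the MYB family (log2 change -0.29, SE 0.137) and Sox12, a relative of SOX4 (log2 change -0.37, SE 0.206, or -0.16 without Smchd1 null replicate 3), none past the threshold at a limma adjusted p of 0.934. Tcf7l2, a relative of LEF1, had 6.61, 6.10 and 8.39 in Smchd1 null samples, against 6.67, 6.67 and 6.90 in wildtype samples, with Smchd1 null replicate 3 the highest and the other Smchd1 null samples the lowest, the pattern seen for LEF1 probe 2710286. Its log2 change was 0.29 (SE 0.533), or -0.39 without Smchd1 null replicate 3.

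**Figure D4:**
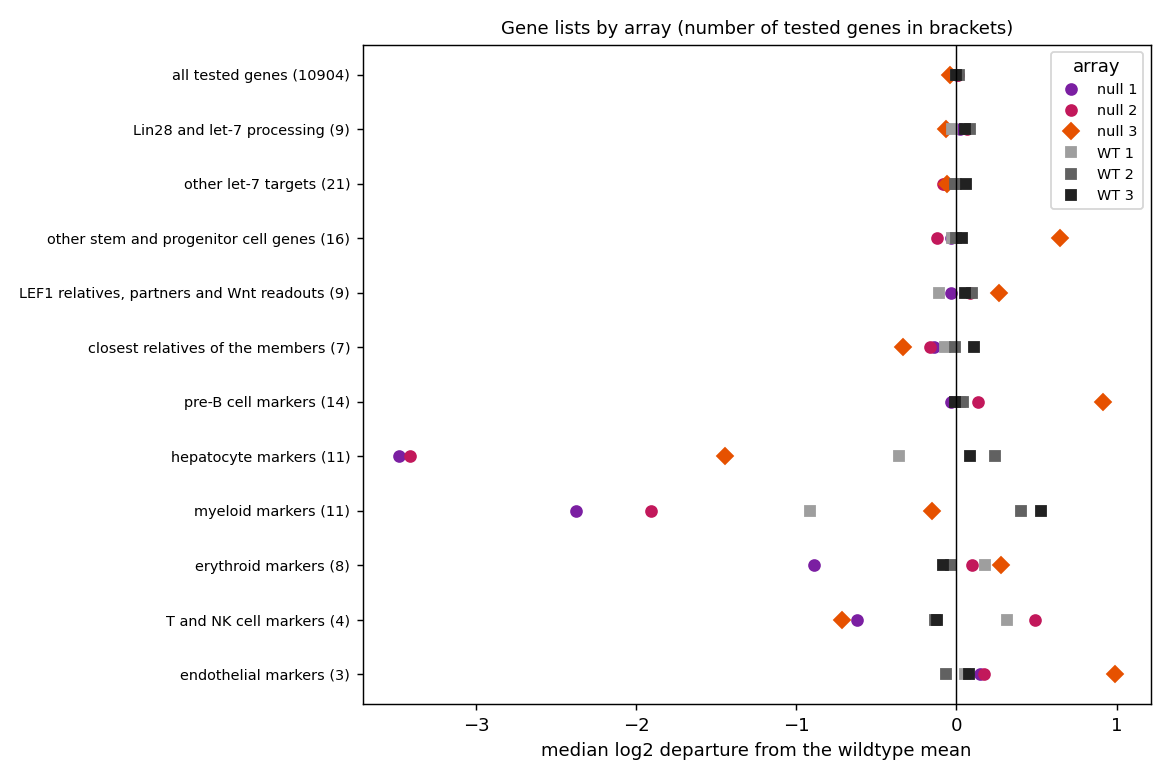
Median departure (log2) from the wildtype mean over the tested genes of each list, by array, with circles for Smchd1 null replicates 1 and 2, diamonds for Smchd1 null replicate 3 and squares for wildtype (WT) replicates 1 to 3. Other stem and progenitor genes lie at 0.65 and pre-B cell markers at 0.91 in Smchd1 null replicate 3, while hepatocyte markers lie at -3.48, -3.41 and -1.45 in Smchd1 null replicates 1, 2 and 3.

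Levels of marker genes of the sorted cells and of other cells are given beside these values, and no test relates them to the 10 genes. All 16 pre-B cell markers on the array were detected in Smchd1 null replicate 3, and 14 or 15 on each other array. The summed intensity of the 14 tested ones was 26509, 29717 and 81146 in Smchd1 null samples, against 29218 to 30196 in wildtype samples. A sum on the linear scale rests mostly on the brightest genes, and the list was not uniform in Smchd1 null replicate 3. Vpreb1 and Vpreb3 had 13.95 and 14.10 there, their highest array. Ikzf3, Cd22 and Cd72 had 5.88, 8.27 and 10.40 there, their lowest array. These were the 3 of the 14 genes with estimates below 0, and the other 11 were above 0. Igll1, a surrogate light chain gene, had 11.96, 11.97 and 14.56 in Smchd1 null samples, against 12.53, 12.52 and 12.73 in wildtype samples, the order seen for IGF2BP2 and LEF1, and Cd79b, part of the B cell receptor, gave 0.27 (SE 0.172), or 0.13 without Smchd1 null replicate 3. Pax5 and Rag2, defining genes of the lineage, had no probe that could be tested.

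Most hepatocyte markers were lower in Smchd1 null samples, where 2, 5 and 9 of 16 were detected, against 10, 12 and 11 in wildtype samples. Summed intensities of the 11 tested ones were 312, 340 and 983 in Smchd1 null samples, against 2296, 3633 and 3425 in wildtype samples, and 2 of the 11 passed the threshold, or 8 without Smchd1 null replicate 3. The 2 were Afp, the main plasma protein of the fetus, and Ambp, a plasma protein precursor, named after their values were seen, with log2 changes of -3.33 and -3.38 (limma adjusted p = 0.0472 and 0.00945). Ttr and Trf, plasma transport proteins and the brightest of the list on average over all 6 arrays, gave -3.37 and -2.56, or -4.22 and -3.44 without Smchd1 null replicate 3. Of the 11 tested markers, 9 had all Smchd1 null samples below all wildtype samples, while 9.61% of all genes did not overlap in either direction. Hnf4a, a hepatocyte transcription factor detected on every array, and Fga, a fibrinogen chain, overlapped between the groups. They gave 0.065 and -0.287, or -0.037 and -0.141 without Smchd1 null replicate 3. Alb, Apob, Fgb and Rbp4 were not detected on any array. Immature liver cells are known to express genes of the LIN28B programme, and the part of these markers in the estimates of LIN28B and the IGF2BP genes was not tested.

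Myeloid markers, of which 11 of 16 were tested, summed to 1846, 2326 and 13134 in Smchd1 null samples, against 5110, 13050 and 13922 in wildtype samples. S100a8 and S100a9, the brightest of them, gave -1.53 and -1.50, or -2.19 and -2.17 without Smchd1 null replicate 3, and Itgam, Cd14 and Mmp8 were not detected on any array. The list was not uniform: S100a8 and S100a9 lay within the wildtype range in Smchd1 null replicate 3, whereas Mpo, Prtn3 and Ctsg, granule proteins picked after their values were seen, had 12.06, 9.21 and 8.82 there, above all wildtype samples. Ctsg and Csf1r had estimates above 0 over all arrays, but -1.28 and -0.29 without Smchd1 null replicate 3. Megakaryocyte and mast cell markers had 5 of 10 detected in Smchd1 null replicate 3, against 0 and 1 in the other Smchd1 null samples and 2 to 3 in wildtype samples. Pf4, a platelet chemokine, had 4.77, 4.91 and 8.82 in Smchd1 null samples, against 5.85, 5.62 and 5.35 in wildtype samples. Its log2 change was 0.56 (SE 0.997), or -0.765 without Smchd1 null replicate 3. Hdc, the enzyme that makes histamine, had 6.83 in Smchd1 null replicate 3, higher than on the other arrays.

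Endothelial cells also express ERG. Of 10 endothelial markers, Egfl7, Pecam1 and Kdr were the 3 detected in Smchd1 null replicate 3, whereas Cdh5, Tie1, Vwf and Plvap were detected on no array and Tek, Emcn and Esam not on that one. Their summed intensity was 1039, 968 and 3325 in Smchd1 null samples, against 891 to 988 in wildtype samples. Egfl7, which blood stem cells also express, had 9.64, 9.49 and 11.51 in Smchd1 null samples, against 9.47, 9.43 and 9.58 in wildtype samples, and Pecam1 gave 0.44 (SE 0.242), or 0.17 without Smchd1 null replicate 3. Kit, the stem cell factor receptor, and Lmo2, a partner of blood stem cell factors, were picked after their values were seen: Kit had 6.28, 6.26 and 10.78 in Smchd1 null samples, against 6.91, 7.09 and 7.14 in wildtype samples, and Lmo2 had 7.04, 6.41 and 9.38 in Smchd1 null samples, against 7.20, 7.34 and 7.51 in wildtype samples. In both, as for IGF2BP2 and LEF1 probe 2710286, Smchd1 null replicates 1 and 2 were the lowest arrays and replicate 3 the highest. The log2 changes of Kit and Lmo2 were 0.73 and 0.26, or -0.775 and -0.63 without Smchd1 null replicate 3. Their list had a median departure of 0.65 there but was not uniform. Fli1, Spi1 and Bmi1, also picked after their values were seen, had 7.05, 5.44 and 5.74, each lowest on that array. The part of progenitor, mast cell or endothelial RNA in the values of Smchd1 null replicate 3 was not tested.

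Erythroid markers, with 8 of 13 tested and Gata1 detected on no array, summed to 16899, 46229 and 58510 in Smchd1 null samples, against 41057, 25133 and 28342 in wildtype samples. Their brightest genes, Hbb-b1 and Hba-a1, are globins whose near-identical copies a probe may not tell apart, and they gave 0.15 and 0.40, or -0.19 and -0.008 without Smchd1 null replicate 3. T and NK cell markers had 4 of 10 tested genes, with Cd3e, Cd3d, Cd4 and Cd8a detected on no array, and their brightest, Lck and Nkg7, gave 0.21 and -0.19, or -0.01 and -0.12 without it. Of 10 mesenchymal markers only Acta2 was tested, at -0.16, or -0.04 without it. The sums of these 3 lists overlapped between the genotypes, unlike those of the hepatocyte markers.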

How the data were processed

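Total RNA from 3 Smchd1 null and 3 Smchd1 wildtype samples was labelled as biotinylated cRNA, per the labels' protocols. Per the file headers, GenomeStudio 1.8.0 exported the deposited intensity of each probe, the unnormalized linear mean over its beads (a median of 43). The number of arrays limits the precision. Each deposited detection p-value is the share of negative control probes at or above the probe, and in 1 deposited table it stands as the fraction 1 minus p. The authors' deposited log2 values and those recomputed here lay within 5e-09 of each other. Per the submitters' processing notes, the tools were BeadStudio, R 2.15.1 and limma 3.12.1. A genome build for the probes is not given in the sources used here.

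Intensities of 45281 probes and 974 control probes, 936 of them negative, were processed with neqc (offset 16) of limma 3.58.1 in R 4.3.3. Probes with a detection p under 0.05 on at least 3 arrays were tested, 15878 in all, after control probes had been left out. Smchd1 null was compared with wildtype with lmFit and eBayes, two-sided, without a covariate, with Benjamini-Hochberg adjustment over all tested probes and a threshold of 0.05. All arrays lay on 1 chip, so a chip block could not be fitted. Probe names were matched to RefSeq (GRCm38.p6), 27400 by current symbol and 8341 by synonym, and 9540 kept the file's name. A gene in a list was represented by its brightest tested probe, and summed intensities are sums of normalized values on the linear scale over tested genes. In pathway lists without a call the 4 genes with the smallest p are named, and in marker lists the 2 brightest. The 10 genes and the lists were chosen with earlier results of these data known. The fit was tested on simulated data. As alternatives, the fit was repeated with no background correction, an offset of 50, median scaling, the deposited log2 values, other detection filters, moderation, array weights, a replicate block, a looser threshold and the omission of each array.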

Additional observations from a re-analysis of the deposited data

Results flagged for a closer look

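Signal appeared in Smchd1 null samples, and in no wildtype sample, at 3 of the 9 probes of these genes that did not enter the test. ERG probe 2360673 was at 6.37 (log2) in Smchd1 null replicate 3. HMGA2 probe 160270 was at 5.48 in the same sample, with a deposited intensity of 166.6, a bead SE of 9.30 over 29 beads and a detection p of 0.00641. IGF2BP1 probe 1470307 was at 5.41 in Smchd1 null replicate 1, with a detection p of 0.0171. Of all 29403 probes that did not enter the test, 8.31% were detected in at least 1 Smchd1 null sample and no wildtype sample, and 3.37% in Smchd1 null replicate 3 alone. In 0.49% the signal of that array alone was also above every negative control, as for ERG. Each of the 3 rests on 1 sample.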

How the results depend on the processing

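No probe of the 10 genes passed the threshold under any alternative, and the smallest adjusted p was 0.328, for IGF2BP3 probe 7100152 with array weights. Calls over all probes, 9 as reported, were 3 without background correction, 72 with median scaling, 2 with the stricter detection filter, 52 with array weights, 2 with the replicate block, 14 at an adjusted p of 0.1, and 2 to 41 with an array left out, 41 without Smchd1 null replicate 3. Same-numbered samples deviated together at 0.02, 0.04 and -0.01 (correlation), so no pairing by number was seen. With so few samples per group, and Smchd1 null replicate 3 standing apart, these values cannot exclude a pairing.

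Of 281 recomputed log2 changes of the 19 probes, 252 kept their sign and 29, of 14 probes, reversed. The 252 overstate the stability. The deposited values, the detection filters, the moderation and the replicate block returned the reported log2 change itself, so no sign could reverse there. All reversals came from the other alternatives. Median scaling shifted the median change of all probes by -0.11 and gave -0.144 and -0.0507 for IGF2BP3 probes 6520356 and 4050132 and -0.0915 for LEF1 probe 2710286. Array weights, 0.165 for Smchd1 null replicate 3 and 0.664 to 2.22 for the others, gave 0.0788 for IGF2BP1 probe 4290192, -0.37 for IGF2BP2, -0.10 and -0.0570 for IGF2BP3 probes 6520356 and 4050132, 0.10 for ARID3A, and -0.50 and -0.0820 for LEF1 probes 2710286 and 2070291. With each array left out, the ranges were -0.13 to 0.00079 for LIN28B, -0.52 to 0.0657 for IGF2BP1 probe 4290192, -0.59 to 0.69 for IGF2BP2, -0.49 to 0.0530 for ARID3A and -0.23 to 0.0480 for SOX4 probe 1010403. They were -0.16 to 0.0553, -0.11 to 0.0927, -0.0771 to 0.17 and -0.59 to 0.0992 for IGF2BP3 probes 2340131, 6520356, 4050132 and 4560053. They were -0.48 to 0.43 and -0.0376 to 0.51 for LEF1 probes 2710286 and 2070291, and -0.30 to 0.16, -0.42 to 0.0753 and -0.51 to 0.0318 for MYB probes 5700064, 2230195 and 6960088. Of 98 list medians, 8 moved beyond the spread of the arrays. The cause of these reversals was not tested. Probes near background, such as IGF2BP2, have little range below them in which a lower level could be seen.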
